A study of Mus musculus with 18 samples.

Results

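The Dppa (developmental pluripotency-associated) genes Dppa2, Dppa3, Dppa4 and Dppa5a were followed on 18 Affymetrix arrays of mouse cells during and after reprogramming to induced pluripotent stem cells (iPSC). They were taken by name: all probe sets that the platform annotation assigns to these symbols, which gave 4 probe sets, 1 per gene, and 4 of the 17903 genes measured. Tcf3 in the labels is the older name of Tcf7l1, a DNA-binding protein that represses genes of the Wnt pathway until beta-catenin binds it. The time course held Tcf3 knockout (ko) cultures reprogrammed with OCK (Oct4, c-Myc and Klf4) and collected on days 11, 15, 19, 22 and 26, and the Tcf3 wild-type (wt) OCK cultures of the same days were their controls, with 1 array per genotype and day. Fully reprogrammed lines were 2 OCK ko clones, 2 OSK (Oct4, Sox2 and Klf4) ko clones and 1 OSK wt clone. A partial OCK iPSC clone, wild-type for Tcf3, received 1 of 2 independent Tcf3 siRNAs (A or B, 1 array each) or a control siRNA (siCtrl, 1 array) and was collected 2 days later. The ko clones are described as separate cell lines, whereas the OSK wt group and the partial line are single clones. The sources used here state no mouse strain, starting cell type or age, nor whether the 2 siRNA arrays are separate cultures or the 5 days of a genotype belong to 1 culture. Between those arrays a p-value covers only their own spread, possibly technical, and a lasting difference between the ko and wt cultures cannot be told apart from genotype.

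The 4 genes are known as markers of pluripotent and germ cells, and their proteins do different things. Dppa2 and Dppa4 are SAP-domain DNA-binding proteins that work as a pair in mouse ES cells, keep developmental promoters poised and help switch on genes of the 2-cell embryo. Dppa3 (Stella or PGC7) is a germ cell and oocyte protein that shields DNA from changes in methylation, in part by holding off Uhrf1. Dppa5a (Esg1) is a KH-domain protein that binds RNA and is abundant in ES cells. Dppa2 and Dppa4 lie side by side on mouse chromosome 16, Dppa3 lies on chromosome 6 and Dppa5a on chromosome 9 (RefSeq gene table, GRCm38.p6). That table also lists the pseudogenes Dppa5b, Dppa5c and Dppa3-ps, and whether the probe sets read them was not tested.

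Values are log2 RMA signal, and 5.64 is a floor: no deposited value is lower and 44.9% to 46.6% of each array's values equal it, so a value at the floor was read as an upper limit. Each array had 12102 to 12499 genes with a signal above it. Tcf7l1 averaged 8.80 ± 0.60 in ko cultures and 9.38 ± 0.39 in wt cultures (SD over 5 days each), 9.43 ± 0.084 in the 2 OSK ko clones and 10.68 in the OSK wt clone, and 8.78 ± 0.018 with the 2 Tcf3 siRNAs against 9.93 with siCtrl. It was lower in OSK ko than in wt clones (-1.25 ± 0.11 log2 units, SE; adjusted p = 0.0215) and lower with Tcf3 siRNA than with siCtrl (-1.15 ± 0.11, adjusted p = 0.0495), while ko minus wt in cultures was -0.58 ± 0.10 (adjusted p = 1). The OSK wt and siCtrl arms are 1 array each, and neither call is stable: 0 genes passed in either comparison without OSK ko clone 1 or clone 2, 0 in the OSK comparison without siRNA A or B or with only the 5 iPSC arrays, and 0 in the siRNA comparison without siRNA B or with only never-floored genes. Tcf7l1 stayed far above the floor in ko cells, and the labels do not say where its probes lie relative to the deletion. The cells are bulk samples, in which fewer cells of a type and less RNA per cell cannot be told apart.

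Dppa5a was the first of the 4 genes above the floor and climbed through most of the time course. On day 15 its linear signal was 0.672% (ko) and 0.742% (wt) of that in the OCK ko clones. The floor itself stands for more in the other genes, 0.915% for Dppa2, 2.15% for Dppa3 and 2.22% for Dppa4. A like rise of those genes by day 15 would therefore not have been seen. In ko cultures its log2 signal was 5.95, 7.31, 9.27, 11.18 and 12.47 on days 11, 15, 19, 22 and 26. The wt cultures had 5.81, 7.45, 7.91, 10.38 and 10.24. The genotypes lay close together on days 11 and 15, and ko was the higher one on days 19, 22 and 26. It was above the floor on all 10 culture arrays, and both genotypes were more than 1 log2 unit above it from day 15. From day 11 to day 26 the ko culture gained 6.52 and the wt culture 4.43 log2 units, and only the wt culture showed no further gain from day 22 to day 26.

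Dppa3 left the floor later and stayed low. Its ko values were 5.64, 5.64, 5.80, 6.31 and 7.27 on the 5 days, and its wt values were 5.64, 5.64, 5.64, 5.77 and 6.08. It was first above the floor on day 19 in ko and on day 22 in wt. Only the ko array of day 26 was more than 1 log2 unit above the floor.

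Dppa4 and Dppa2, the paired SAP-domain genes, were at the floor through day 19. Dppa4 was at the floor on days 11, 15 and 19 in both genotypes, then 5.78 and 7.20 in ko on days 22 and 26, and 5.77 and 5.64 in wt on those days. Dppa2 was at the floor on days 11, 15 and 19 in ko and then at 6.42 and 7.97, and it was at the floor on all 5 wt arrays. Of these 3 genes the wt cultures therefore held a measurable signal for Dppa3 on 2 days, for Dppa4 on 1 day and for Dppa2 on 0 days.

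**Figure D1:**
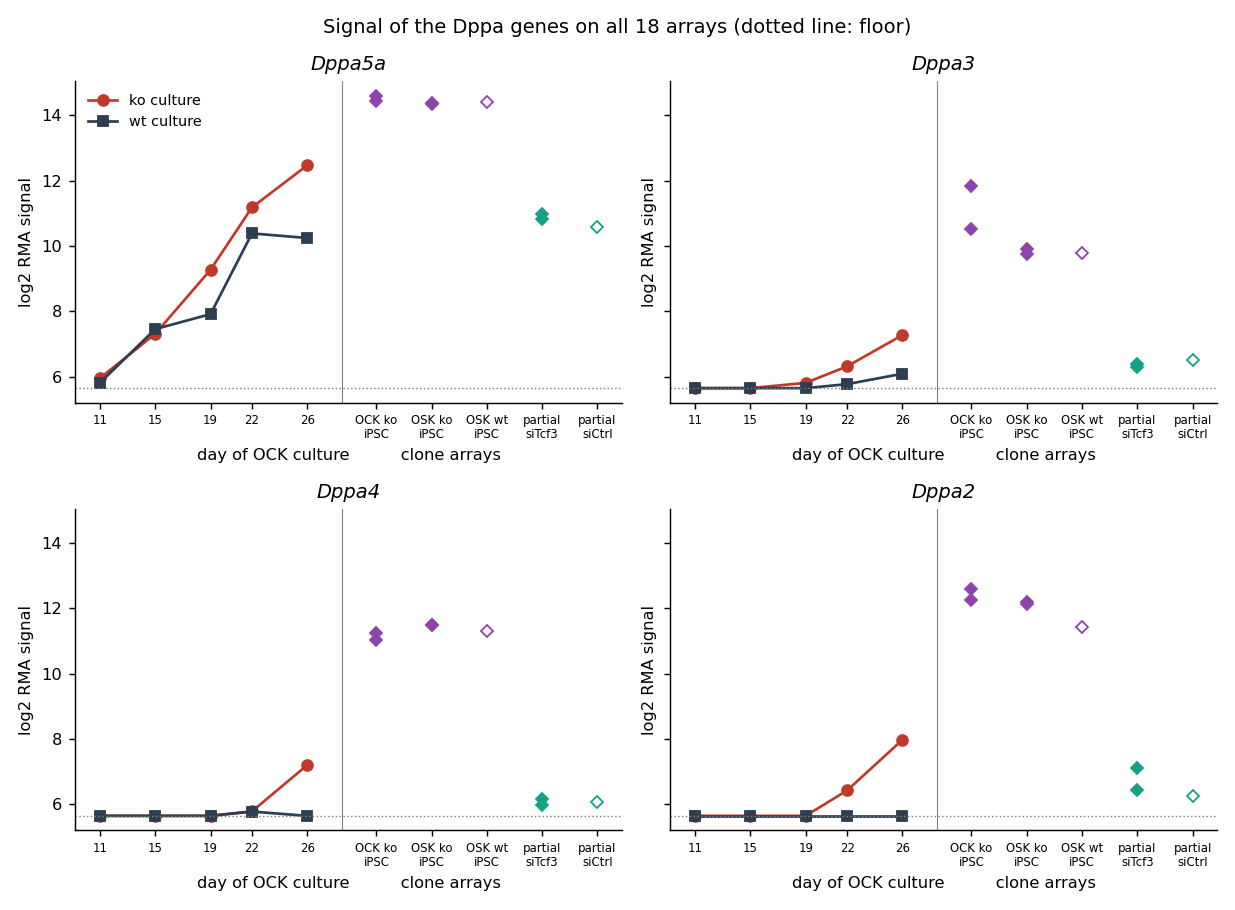
Log2 RMA signal (y axis) of the 4 genes on all 18 arrays: ko (red circles) and wt (dark squares) OCK cultures by day, then iPSC clones (purple) and the partial clone with siRNA (green), with open symbols for the OSK wt clone and siCtrl and a dotted line at the floor of 5.64. Dppa5a is more than 1 log2 unit above the floor from day 15 in both genotypes, while Dppa2 and Dppa4 are at the floor until day 19.

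Dppa5a, Dppa3 and Dppa2 passed as rising over the time course, Dppa2 with values above the floor in ko only. The change per day, the mean of the ko and wt slopes in 1 limma fit of the 10 culture arrays, was 0.39 ± 0.028 log2 units for Dppa5a (SE; adjusted p = 0.00207), the second highest of the 13428 genes tested. It was 0.072 ± 0.023 for Dppa2 (adjusted p = 0.039) and 0.066 ± 0.015 for Dppa3 (adjusted p = 0.0133). Dppa4 had 0.045 ± 0.02 and did not pass (adjusted p = 0.0967). So 3 of 4 members passed as rising, Dppa2 through ko alone, where 18% of all tested genes rose. For Dppa2, Dppa3 and Dppa4, 8, 5 and 7 of the 10 values are at the floor. All 5 wt values of Dppa2 are among them, so its mean slope comes from the ko cultures alone. These constant values also lower the spread behind its p-value, and no slope of ko alone was tested. The fit takes the 10 arrays as independent although ko and wt share each day: in a line through the 5 day means Dppa5a still passed (adjusted p = 0.027), while Dppa2 (0.0853) and Dppa3 (0.0753) did not. Without day 11 none of them passed (Dppa5a 0.387 per day, adjusted p = 0.0663), and without day 26 the slopes of Dppa2 and Dppa3 were 0.030 (adjusted p = 0.219) and 0.033 (adjusted p = 0.115). Dppa2 also lost its call with limma's plain prior (adjusted p = 0.0992), without day 15 (0.119) and without day 22 (0.0602). Dppa3 also lost its call without day 15 (adjusted p = 0.0569).

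Successive days show where each rise lay. Each step was tested with day as a factor and genotype as a block, so a day had 1 ko and 1 wt array. From day 11 to day 15 Dppa5a gained 1.36 in ko and 1.64 in wt, which gives 1.5 ± 0.52, unadjusted p = 0.0246 and adjusted p = 0.369. It was the only member above the floor in that step, and 0.132% of 12845 genes passed as higher. From day 15 to day 19 it gained 1.96 in ko and 0.46 in wt (1.21 ± 0.52, adjusted p = 0.123), while the step of Dppa3 was 0.081 ± 0.28 (adjusted p = 0.856) and 13.8% of all genes passed as higher.

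From day 19 to day 22 Dppa5a rose by 2.19 ± 0.52 (adjusted p = 0.0419), with 1.91 in ko and 2.47 in wt. It was the 1 of 4 members that passed in this step, in which 5.13% of genes passed as higher. This call was lost with limma's plain prior (adjusted p = 0.152), without day 11 (0.0707) and with the mean of each gene's probe sets (0.0505). Dppa2 (0.39 ± 0.55), Dppa3 (0.31 ± 0.28) and Dppa4 (0.13 ± 0.38) did not pass. From day 22 to day 26 limma called 0 of 12926 genes, 0% in either direction, with 1718 genes and 0 of the 4 members at an unadjusted p under 0.05. Over that last step Dppa2 gained 1.55 in ko and 0 in wt, Dppa4 gained 1.42 in ko and had -0.13 in wt, Dppa3 gained 0.96 in ko and 0.32 in wt, and Dppa5a gained 1.29 in ko and had -0.14 in wt. The largest step in ko was thus the last one for Dppa2, Dppa3 and Dppa4. For Dppa5a the ko steps from day 15 to day 19 (1.96) and from day 19 to day 22 (1.91) were close. Its largest wt step (2.47) and largest fitted step (2.19) were from day 19 to day 22. The steps span unequal numbers of days. The difference in timing between the genes is a description and was not tested, and a rise below the floor would not be seen.

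**Figure D2:**
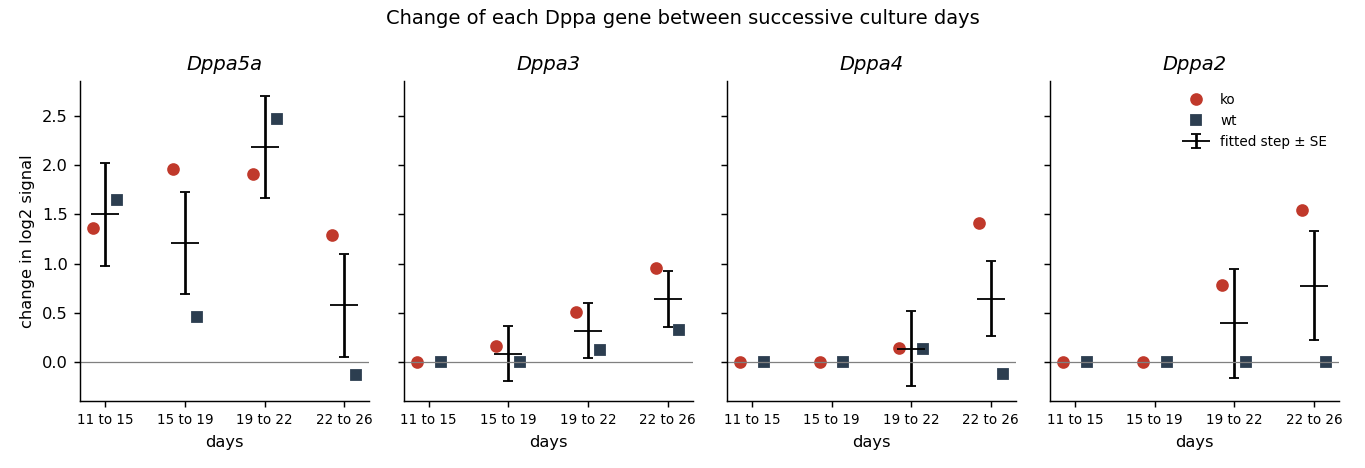
Change in log2 signal (y axis) between successive culture days (x axis) in ko (red circles) and wt (dark squares), with the fitted step ± SE (black bar) where the gene was above the floor. Dppa5a gained more than 1 log2 unit in ko in all 4 steps, and Dppa2 and Dppa4 did so only from day 22 to day 26.

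Dppa2 and Dppa4, each other's neighbours, were both at the floor through day 19 and had their largest ko step after day 22. Morc1, a germ cell gene beside Dppa2 and Dppa4, was at 5.64, 6.83, 9.31, 10.09 and 10.01 in ko cultures and at 5.68, 6.73, 9.77, 9.73 and 8.57 in wt cultures on the 5 days. On day 19 it was within 1 log2 unit of its highest culture value in both genotypes, while Dppa2 and Dppa4 were at the floor in both. Its rise from day 15 to day 19 was 2.76 ± 0.39 (adjusted p = 0.0104). On the other side Nectin3, an adhesion gene, stayed between 9.47 and 10.59 in ko cultures and between 9.58 and 10.24 in wt cultures. Trat1 was at the floor on all 10 culture arrays and Cd96 on 9 of them, both being genes of lymphocytes.

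Ooep, the gene beside Dppa5a and a member of the same KH-domain family, is known from mouse as an oocyte protein. Its signal was 5.74, 5.86, 6.08, 7.52 and 8.84 in ko cultures and 5.89, 5.87, 5.71, 6.62 and 6.34 in wt cultures. It was above the floor on all 10 arrays, as Dppa5a was, and in ko its 2 largest steps came after day 19. Ddx43, Omt2b and Gsta2, the other neighbours of Dppa5a, were at the floor on all 10 culture arrays.

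Dppa3 lies between Gdf3, a TGF-beta family ligand, and Nanog, a core pluripotency factor, all 3 being at the floor on day 11. Gdf3 was first above the floor on day 15 in both genotypes, at 6.55 in ko and 7.92 in wt. Nanog was first above it on day 19 in ko, at 7.41, the same day as Dppa3 (5.80), and on day 15 in wt, at 7.28, where Dppa3 was first above it on day 22. On day 26 Gdf3 was at 8.82 in ko and 9.12 in wt, and Nanog at 9.79 in ko and 9.23 in wt. Slc2a3, a glucose transporter gene beyond Nanog, was at the floor on all culture arrays, and Apobec1, an RNA-editing enzyme gene beyond Gdf3, was between 8.67 and 9.29 in ko and between 8.71 and 9.41 in wt cultures. Signal levels of different probe sets are not comparable, and the day a gene leaves the floor also depends on its probes. No difference in timing between neighbours was tested.

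**Figure D3:**
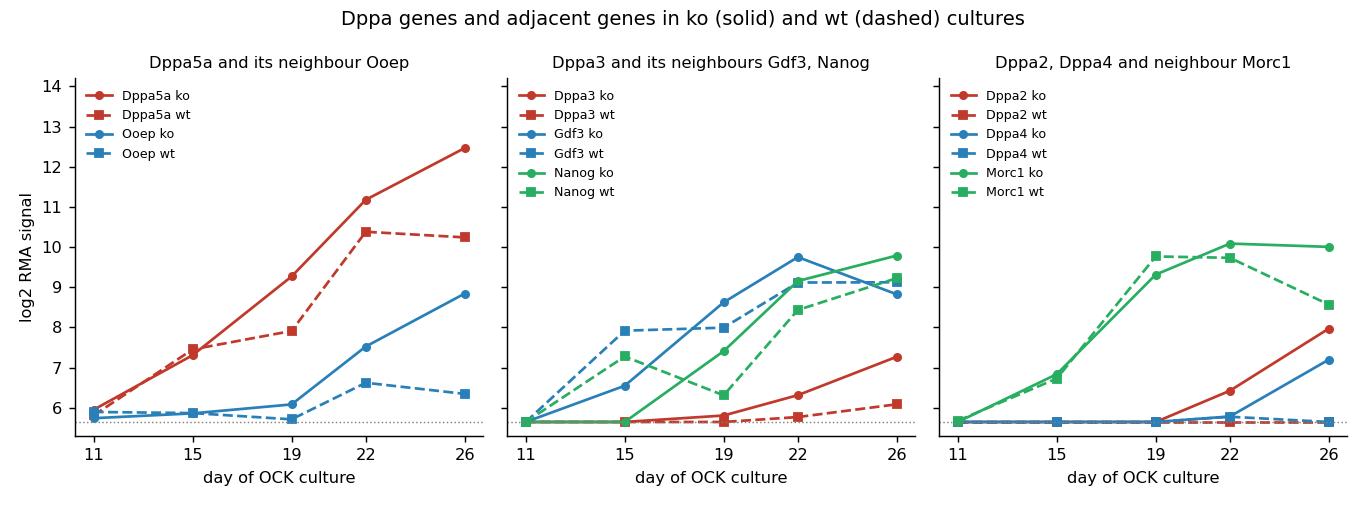
Log2 signal (y axis) by culture day (x axis) of each member and adjacent genes, with ko as solid and wt as dashed lines and the floor dotted. On day 19 Morc1 is at 9.31 in ko and 9.77 in wt with Dppa2 and Dppa4 at the floor, and Ooep is at most 6.08 with Dppa5a at 9.27 in ko.

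The likeness of other genes to each member over the 10 culture arrays was measured by Pearson's r among 12440 genes, as a description only, since the arrays share the trend with day and many values are at the floor. For Dppa5a the most alike were Zscan10 (0.986), a pluripotency-associated zinc-finger gene, Mylpf (0.986), Susd4 (0.984), Slc16a6 (0.982) and Fam122b (0.981), with Nanog at 0.949 and Sox2 at 0.917. For Dppa2 they were Ceacam9 (0.976), Zfp934 (0.971), Usp43 (0.971), Klf2 (0.971) and Hpn (0.964). For Dppa4 they were Ceacam9 (0.989), Trh (0.983), Zfp934 (0.980), Klf2 (0.961) and Hpn (0.953). For Dppa3 they were Usp43 (0.997), Sct (0.987), Elmo3 (0.972), Olig1 (0.971) and Ooep (0.966).

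Nanog correlated less closely with the late members, with r = 0.619 for Dppa2, 0.772 for Dppa3 and 0.564 for Dppa4. Among the members, r was 0.963 for Dppa2 with Dppa3, 0.965 for Dppa2 with Dppa4 and 0.921 for Dppa3 with Dppa4, and 0.683, 0.805 and 0.633 for Dppa5a with Dppa2, Dppa3 and Dppa4. Only on the ko array of day 26 was Dppa2, Dppa3 or Dppa4 more than 1 log2 unit above the floor. All r values of these genes over the cultures therefore rest largely on that array. Over all 18 arrays, which mix cultures and clones, the closest among 12448 genes were Tfcp2l1, Ooep and Trap1a for Dppa2 (0.991, 0.991 and 0.990), Swt1, Cox7a1 and Ooep for Dppa3 (0.994, 0.989 and 0.987), Arid3b, Zfp979 and Tex14 for Dppa4 (0.997, 0.995 and 0.992), and Med19, Strbp and Sinhcaf for Dppa5a (0.984, 0.975 and 0.973).

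Whether loss of Tcf3 changed the 4 genes was tested by comparing ko with wt on matched days. Dppa5a was higher in ko on 4 of 5 days, by 0.14, -0.14, 1.36, 0.80 and 2.23 from day 11 to day 26, and averaged 0.88 ± 0.33 (SE). It did not pass (unadjusted p = 0.0338, adjusted p = 1). An exact two-sided permutation test that flips the sign of each of the 5 daily differences gave p = 0.1875, and such a test cannot go below 0.0625. Dppa2 averaged 0.62 ± 0.35, Dppa3 0.38 ± 0.18 and Dppa4 0.31 ± 0.24. These 3 genes were equal at the floor in both genotypes on 3, 2 and 3 days and higher in ko on the rest. Of 13428 genes limma called 0 (0%), with 452 at an unadjusted p under 0.05, Dppa5a among them as the 1 of 4 members, and limma's plain prior also called 0, with 598 at that level.

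The last day carried most of these differences. On day 26 ko minus wt was 2.33 for Dppa2, 1.18 for Dppa3, 1.55 for Dppa4 and 2.23 for Dppa5a. Without day 26 the averages were 0.19, 0.18, 0.0016 and 0.54. The ko array of day 26 also stood apart in trophoblast markers: the summed linear signal of the 6 measured was 2203 there and 743 on the wt array of that day, against 386 to 570 on the other ko arrays. The sum of 6 neural markers on day 26 was 4801 in wt and 1762 in ko, within the 571 to 3070 of the ko cultures. That of 6 pluripotent cell markers on day 26 was 3896 in ko and 1883 in wt. The part of these cell types in the Dppa differences was not tested.

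The slopes were steeper in ko by 0.14 ± 0.046 log2 units per day for Dppa2, 0.14 ± 0.056 for Dppa5a, 0.084 ± 0.039 for Dppa4 and 0.078 ± 0.03 for Dppa3. None passed (adjusted p = 1 each), and 3 of 4 had an unadjusted p under 0.05. For Dppa2, with all wt values at the floor, this test repeats that of its change per day (limma, unadjusted p = 0.0125 in both). It is therefore no separate result on genotype. Limma called 0 of 13428 genes for the slope difference (0%), with 208 at an unadjusted p under 0.05. With the plain prior 259 genes were at that level and 0 were called. With day as a replicate block 1101 genes were at that level, 0 passed, and the members' adjusted p lay at 0.594 for Dppa2, Dppa3 and Dppa5a and at 0.611 for Dppa4.

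In the established clones all 4 genes were high. Dppa5a was at 14.60 and 14.45 in the OCK ko clones, 14.34 and 14.37 in the OSK ko clones and 14.41 in the OSK wt clone. These are among the 10 brightest probe sets on each array, and in OCK ko clone 1 Dppa5a was the brightest of all 40508, so differences between clones could be compressed at the top of the scale. Dppa4 was at 11.04 and 11.24 in OCK ko, 11.48 and 11.49 in OSK ko and 11.30 in OSK wt clones. Dppa2 was at 12.26 and 12.58 in OCK ko, 12.18 and 12.12 in OSK ko and 11.44 in the OSK wt clone. Dppa3 was at 11.85 and 10.52 in OCK ko, 9.76 and 9.89 in OSK ko and 9.78 in the OSK wt clone.

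The clones were far above the early cultures. The 5 clones averaged 14.43 ± 0.10 for Dppa5a (SD), 376-fold above the mean of the 2 day-11 arrays. This fold is too low if the clone signal is compressed at the top of the scale, which was not tested. For the others day 11 was at the floor, so the clones were at least 88.7-fold higher for Dppa2 (12.11 ± 0.42), at least 50.8-fold higher for Dppa4 (11.31 ± 0.19) and at least 26.3-fold higher for Dppa3 (10.36 ± 0.89). The range over the 5 clones was 0.45 log2 units for Dppa4, 1.14 for Dppa2 and 2.08 for Dppa3. That of Dppa5a, 0.26, is not set against them, since its values lie at the top of the scale.

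Between OCK and OSK ko clones no member passed. OCK minus OSK for Dppa3 was 1.35 ± 0.39 (unadjusted p = 0.0136, adjusted p = 0.0835). The OCK ko clones differed from each other by about as much, and the result depends on which is kept: without OCK ko clone 1 the difference was 0.69 (adjusted p = 0.00773) and without clone 2 it was 2.02 (adjusted p = 0.000328). In both fits only the 2 OSK ko clones and the 2 Tcf3 siRNA arrays set the spread. Dppa4 had -0.35 ± 0.11 (unadjusted p = 0.0228, adjusted p = 0.112), and -0.44 without OCK ko clone 2. Dppa2 (0.27 ± 0.23) and Dppa5a (0.17 ± 0.10) did not pass (adjusted p = 0.496 and 0.332). So 0 of 4 members passed by limma, 2 of 4 had an unadjusted p under 0.05, and 10.7% of 12905 genes passed in either direction.

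In OSK ko against wt clones Dppa2 differed by 0.71 ± 0.28 (unadjusted p = 0.0435, adjusted p = 0.367), with both ko clones above the single wt clone. Dppa4 (0.18 ± 0.14), Dppa3 (0.050 ± 0.48) and Dppa5a (-0.054 ± 0.12) did not pass. Limma called 0 of 4 members, 1 of 4 had an unadjusted p under 0.05, and 0.687% of 12670 genes passed.

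The partial clone held Dppa5a well above the floor and the other 3 genes closer to it. Dppa5a was at 10.84 and 10.99 with siRNAs A and B and at 10.58 with siCtrl. Dppa2 was at 6.43 and 7.10 with the Tcf3 siRNAs and at 6.26 with siCtrl, Dppa3 at 6.29 and 6.37 against 6.5, and Dppa4 at 5.97 and 6.17 against 6.07. Both siRNA arrays lay above siCtrl for Dppa5a (0.33 ± 0.12, unadjusted p = 0.0351, adjusted p = 0.351) and for Dppa2 (0.51 ± 0.28, adjusted p = 0.514), both lay below it for Dppa3 (-0.17 ± 0.48, adjusted p = 0.926), and they lay on either side of it for Dppa4 (0.00023 ± 0.14, adjusted p = 1). Limma called 0 of 4 members, 1 of 4 had an unadjusted p under 0.05, and 0.111% of 12636 genes passed.

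**Figure D4:**
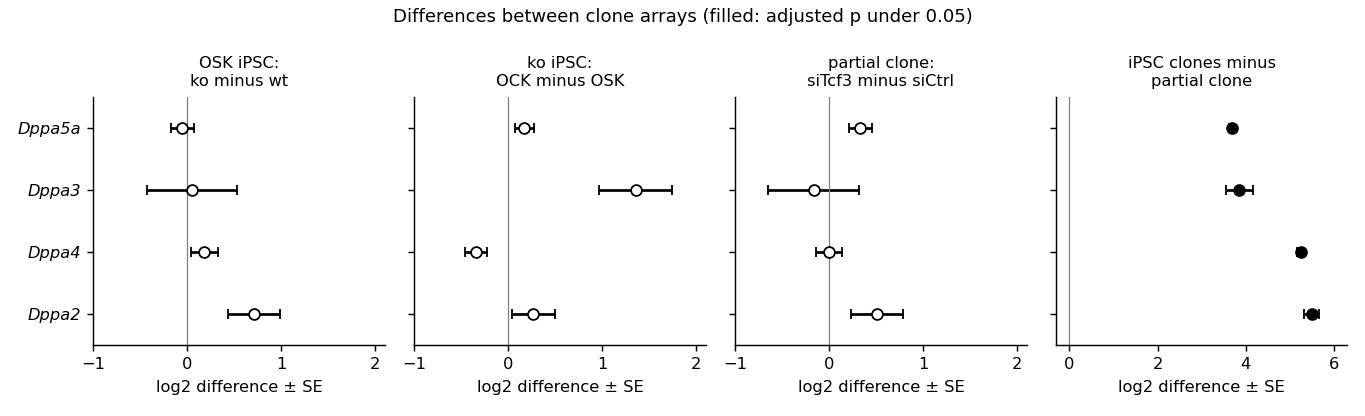
Log2 difference ± SE (x axis) of the 4 genes in 4 comparisons of the 8 clone arrays, the last panel on a wider axis, with filled circles where the adjusted p was under 0.05. Only iPSC clones against the partial clone has filled circles, from 3.68 for Dppa5a to 5.49 for Dppa2.

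All 4 members were higher in the iPSC clones than in the partial clone. The difference was 5.49 ± 0.18 for Dppa2 (adjusted p = 3.37e-06), 5.24 ± 0.088 for Dppa4 (adjusted p = 8.45e-07), 3.85 ± 0.30 for Dppa3 (adjusted p = 8.87e-05) and 3.68 ± 0.078 for Dppa5a (adjusted p = 1.28e-06), which the top of the scale may hold down. Dppa2 and Dppa4 ranked ninth and 14th from the top of 13571 genes, and 37.3% of all genes passed as higher. Each of the 4 calls held in all 11 alternatives tried. None of these left out the OSK wt or the siCtrl array, each the only array of its group. The clones and the partial line are different clones, and 3 of 3 partial arrays come from 1 of them.

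Relative to the OCK ko clones, the linear signal of Dppa5a in ko cultures was 0.262%, 0.672%, 2.61%, 9.82% and 24.0% on the 5 days, and 0.238%, 0.742%, 1.02%, 5.66% and 5.13% in wt cultures. On day 26 Dppa2 stood at 4.59% in ko and at most 0.915% in wt, Dppa3 at 6.64% in ko and 2.92% in wt, and Dppa4 at 6.51% in ko and at most 2.22% in wt. The partial clone had 7.57% for Dppa5a, 3.6% for Dppa3, 2.98% for Dppa4 and 1.77% for Dppa2. RMA signal is not strictly proportional to RNA, so these shares are approximate, and those of Dppa5a are upper limits if its clone signal is compressed. The order of the members was the same in the ko culture of day 26 and in the partial clone, with Dppa5a highest and Dppa2 lowest. A value at the floor would give 0.915% for Dppa2, 2.15% for Dppa3 and 2.22% for Dppa4. The order of these 3 genes near the floor thus depends in part on their clone signal. The OCK ko clones lay apart for Dppa3 (11.85 and 10.52). Its share, and its place among the members and other genes, therefore depend on the clone taken.

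The 21 measured genes of a list of 23 pluripotency factors place these shares. On ko day 26 they ran from 1.36% (Tcl1) to 160% (Klf4, a reprogramming factor), with a median of 13.6% and 8 of 21 under 10%, as were 3 of the 4 Dppa genes. Tfcp2l1 (6.19%), Tbx3 (6.03%), Nr5a2 (5.77%) and Esrrb (5.64%) lay beside Dppa3 and Dppa4. Lin28a (38.7%), Utf1 (36.7%) and Sox2 (27.4%) lay above Dppa5a. In the partial clone Nanog was at 1.07% and Dppa5a at 7.57%. For Pou5f1 and Klf4 the labels do not say if the probes detect the reprogramming transgenes.

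**Figure D5:**
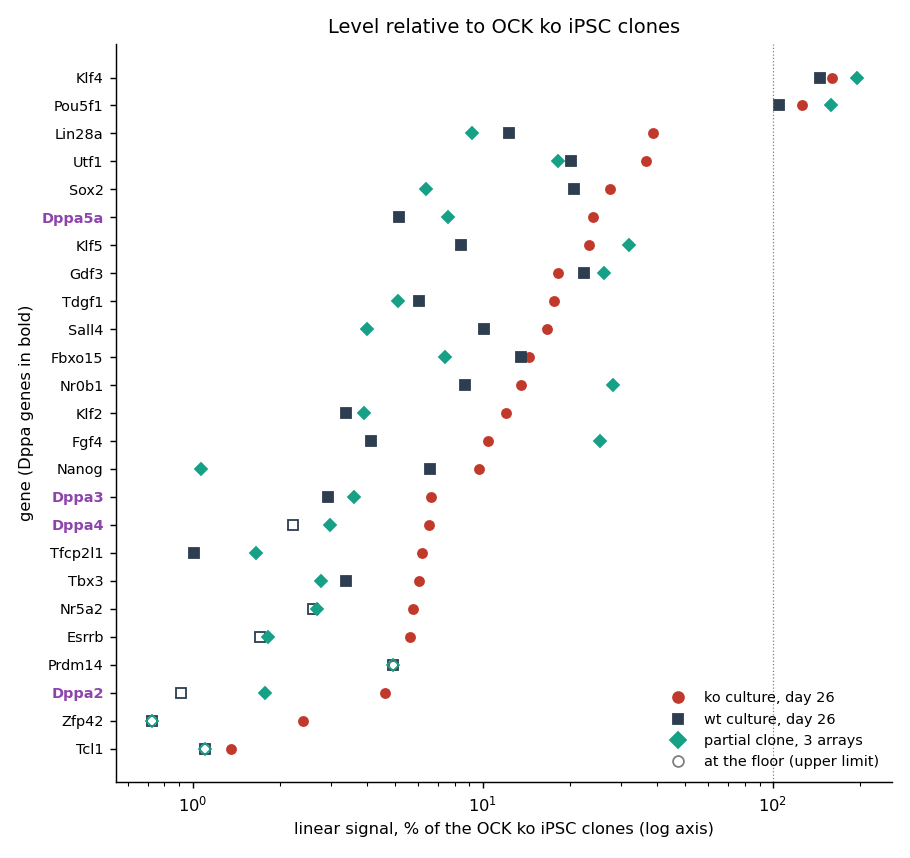
Linear signal as a percentage of the mean (on the log2 scale) of the 2 OCK ko iPSC clones (x axis, log scale) for the Dppa genes (bold) and 21 pluripotency factors on day 26 in ko (circles) and wt (squares) cultures and in the partial clone (diamonds), with open symbols at the floor. On ko day 26 Dppa2, Dppa3 and Dppa4 lie between 4.59% and 6.64% and Dppa5a at 24.0%.

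Of the 20 pluripotency factors tested for the change per day, 13 rose, 0 fell and 7 did not pass (median 0.14 per day), against 18% of all genes rising and a median of -0.0011. The rise was led by Sox2 at 0.34 ± 0.06, Fbxo15 at 0.31 ± 0.045, Nanog at 0.27 ± 0.037 and Sall4 at 0.26 ± 0.038, and Pou5f1 (Oct4) was at 0.15 ± 0.027. Between iPSC clones and the partial clone 19 of 21 were higher and 2, Pou5f1 (-0.73) and Klf4 (-1.35), were lower (median 4.01), against 37.3% of all genes higher, 27.4% lower and a median of 0.058. They were led by Zfp42 (6.87), Nanog (6.35), Esrrb (5.74) and Tcl1 (5.65). Sox2 was at 3.93.

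Of 14 listed genes of the 2-cell embryo, a stage whose genes Dppa2 and Dppa4 help to activate, 6 were measured, and 0 of 6 were above the floor on any culture array. In the iPSC clones Usp17la and Tcstv1 were higher than in the partial clone (2.62 ± 0.35 and 1.32 ± 0.37, adjusted p = 0.000885 and 0.0195), as were 37.3% of all genes. Usp17la was above the floor in every iPSC clone, lowest in the OSK wt clone (6.67). Tcstv1 was at 9.41 and 8.07 in OCK ko clones and at 6.98 and 6.06 in OSK ko clones. In the OSK wt clone it was at the floor, as in the partial clone. Tcstv1 was also higher in OCK than in OSK ko clones (2.22 ± 0.47, adjusted p = 0.0385). The other 2 tested, Zfp352 (0.21) and Tcstv3 (0.033), did not pass.

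Of the KH-domain family of Dppa5a, 4 of 5 listed genes were measured. Ooep rose in the cultures (0.13 ± 0.026 per day, adjusted p = 0.0098), was higher in OCK than OSK ko clones (1.03 ± 0.16, adjusted p = 0.0166) and higher in iPSC clones than in the partial clone (5.53 ± 0.12). Khdc3, an oocyte gene, was at 0.012 ± 0.011 per day and did not pass, and was higher in iPSC clones than in the partial clone (1.89 ± 0.32, adjusted p = 0.00255). Khdc1a and Khdc1b were at the floor on all arrays compared.

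Of 11 measured genes of DNA methylation, the process Dppa3 acts on, 8 rose in the cultures, 0 fell and 3 did not pass (median 0.064 per day), where 18% of all genes rose and 18.7% fell. The 8 included Uhrf1 (0.21 ± 0.037), which recruits Dnmt1, the 5-methylcytosine oxidase Tet1 (0.20 ± 0.037), the methyltransferase Dnmt3b (0.18 ± 0.034) and Dnmt1 itself (0.11 ± 0.022). In iPSC clones against the partial clone 7 of 11 were higher, where 37.3% of all genes were, led by Tet1 (5.08 ± 0.088), Dnmt3b (2.39) and Zfp57 (1.62), and Tet3 (-0.64) and Ehmt1 (-0.22) were lower.

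Germline genes were mostly at the floor in the cultures, where 11 of 17 were so on all arrays and 3 of the 6 tested rose, as did 18% of all genes: Tfap2c (0.13), Kit (0.092) and Tdrd12 (0.047). In iPSC clones 12 of 13 tested were higher than in the partial clone, 0 were lower, and the median difference was 2.84, where 37.3% of all genes were higher. Dazl (4.62), Kit (4.28), Tdrd12 (3.79) and Ddx4 (3.35) led them. Dazl, an RNA-binding protein of germ cells, was at the floor on all 10 culture and 3 partial clone arrays.

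Markers of other cell types changed over the same days: 7 of 8 fibroblast and 4 of 6 macrophage markers fell per day and 5 of 6 neural, 4 of 6 pluripotent cell and 2 of 6 trophoblast markers rose, where 18.7% of all genes fell and 18% rose. In the iPSC clones 8 of 8 fibroblast markers were lower than in the partial clone, as were 27.4% of all genes. The summed linear signal of 8 fibroblast markers was 89898, 93087, 55397, 36399 and 51698 in ko cultures and 89921, 87102, 55417, 48210 and 58911 in wt cultures on the 5 days. That of 6 macrophage markers was between 574 and 3665 in ko and between 661 and 2592 in wt cultures, and that of the pluripotent cell markers between 369 and 3896 in ko and between 414 and 1883 in wt. In the iPSC clones fibroblast markers summed to 1091 to 3867, with Postn at the floor in the OCK ko and OSK ko clones, and the macrophage markers Lyz2, C1qb, Adgre1 and Ptprc were at the floor. In the partial clone the fibroblast markers summed to 10731 and 11140 with the Tcf3 siRNAs and 13368 with siCtrl, while the pluripotent markers summed to 930 and 1197 against 980, with Zfp42 at the floor on all 3 arrays. The part of these cells in the Dppa values was not tested.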

How the data were processed

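Per the submitters' processing notes the authors processed the arrays with RMA, and the deposited values are on a log2 scale with 1 value per probe set; the sources used here name no version, settings or genome build. Of 40508 probe sets, 31076 had 1 gene symbol in the platform annotation, 636 several and 8796 none; 30878 were matched to the RefSeq table by Entrez ID and 0 symbols changed. The brightest probe set stood for a gene. Between 44.9% and 46.6% of values per array were at the floor (log2 of 50.0).

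Differences were tested with limma (version 3.58.1, R 4.3.3, Python 3.11.15 and pandas 2.3.3 for tables) and Benjamini-Hochberg adjustment over all genes tested, at 0.05. Genes never at the floor set the prior variance of each fit (10 culture or 8 clone arrays), a gene with any floored array got no less than it, and a gene floored on all arrays compared had no test. The code was checked on simulated data. In the 8-array fit single arrays are assumed to vary like the pairs. Named genes are the members, their 2 nearest named protein-coding neighbours on each side, the most correlated genes and up to 4 listed genes with the largest passing changes; other genes named for their place in a count or an order were chosen after their values were seen. Alternatives were another prior, normalization, probe set summary, floor filter and block, and leaving out each array or day where the comparison could still be fitted. Members and lists were chosen with earlier results of these data known. Clone numbers are not stated to pair samples. Few arrays limit the precision of every value.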

Additional observations from a re-analysis of the deposited data

Results flagged for a closer look

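Of 15 groups of 5 values checked for a value far from the others, 4 were marked. The rule is set to mark about 1 in 20 sets of replicates. That rate does not apply here, since the culture groups hold days of a time course and not replicates. Values at the floor are also equal, so 1 value above them is always marked. Dppa4 had 7.20 on day 26 in ko cultures, with a gap to the next value of 0.912 of the range, and its ko minus wt difference of 1.55 on that day stood apart by 0.996 of the range. In wt cultures Dppa4 had 5.77 on day 22 and was at the floor on the other days. Dppa3 had 6.08 on day 26 in wt cultures, with a gap of 0.721 of the range.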

How the results depend on the processing

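For the 39 differences of single members tested, 408 alternative values were computed, of which 387 kept direction and side of the threshold, 14 lost the call, 4 gained one and 3 changed sign. Over the time course 3 members passed, against 1 in the line through the day means. Dropping genes with any floored value left only Dppa5a to test, and it passed. Leaving out a day gave between 0 and 3 members. From day 19 to day 22 the call of Dppa5a fell away with the plain prior and with the mean of probe sets (0 members each), and leaving out a day gave 0 or 1. Between OCK and OSK ko clones leaving out an array gave 0 to 2 members. Signs turned only for values near 0: Dppa3 in OSK ko against wt was -0.016 without OSK ko clone 2 and 0.12 without clone 1, and Dppa4 after Tcf3 siRNA was -0.025 with quantile normalization and -0.10 without siRNA B (0.10 without siRNA A). With clone number as a replicate block in the OCK against OSK comparison, 0 members passed (Dppa3 1.35, adjusted p = 0.0519); same-numbered clones deviated with r = -0.129 across 11603 genes, and with crossed numbers, an alternative chosen after seeing the data, 1 member and 1597 genes passed against 1377 without a block and 1275 with it. Without day as a replicate block ko against wt also gave 0 members. Each member has 1 probe set, so no value by single probe set exists. Counts over all genes moved more: 4921 for the change per day became 424 with day means and 0 without day 11, 1666 for day 19 to 22 became 377 with the plain prior and 316 without day 11, 3526 for day 15 to 19 became 1136 and 1797 in those settings, and 49 for day 11 to 15 became 7 when genes with any floored value were dropped. For the clones 1377 (OCK against OSK) became 8 without OSK ko clone 1 and 3614 without OCK ko clone 2, 87 (OSK ko against wt) lay between 0 and 1142, and 14 (siRNA) between 0 and 519. The floor hides any change below it.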
